A study of Rattus norvegicus with 10 samples.

Results

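The choroid plexus secretes the cerebrospinal fluid (CSF) and adds to it a set of proteins made by its own cells. The 8 genes described here encode such proteins, namely IGF2, IGFBP2, METRN, ENPP2, PTGDS, CLU, APOE and CST3. They were taken from a list of symbols, linked by Ensembl identifier to the transcript abundance of 32883 genes in each rat, and all 8 passed the minimum level for testing. They were selected on values of these data, since the list was drawn up with earlier results known, the table that gave most symbols holds only abundant genes, and METRN also stands in the authors' own list of genes that differed between the diets. The diet difference of the 8 genes is therefore described here with its error, and no test of it is offered as support.

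RNA came from the lateral and 4th choroid plexus of 10 female Wistar rats aged 27 weeks, with 1 animal per library and no pooling. For 21 weeks, 5 rats had eaten a high fat diet (HFD, with 60% of the energy from fat) and 5 a control diet matched for nutrient source (10% of the energy from fat). No other treatment or allele was named. Rats entered the experiments by body weight, light ones from the control diet and heavy ones from the HFD, so that the groups differ by diet and by selected weight together. The comparison asks whether the diet altered what the choroid plexus transcribes for the CSF.

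As background, the choroid plexus is a sheet of secretory epithelium folded over a vascular stroma, and its proteins reach the brain by bulk flow of the CSF. IGF2 is a growth factor of the insulin family and IGFBP2 a protein that binds it. METRN (meteorin) is a secreted factor that acts on glia and on growing axons. ENPP2 (autotaxin) makes lysophosphatidic acid, and PTGDS makes prostaglandin D2 and carries small lipophilic molecules in the CSF. CLU (clusterin) is an extracellular chaperone, APOE the main lipid carrier of the brain, and CST3 (cystatin C) an inhibitor of cysteine proteases.

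Expression is given in TPM, the share of each transcript among all transcripts. TPM are corrected for length and add up to a fixed total per rat. The depth of each library is unknown, since TPM carry no read number. To compare rats, each rat's TPM were divided by a scaling factor, the median over 12037 genes of its value relative to the average rat, and the result is called rescaled TPM. Control rat 1 stood apart. Its factor was 0.741 against 0.934 to 1.12 in the other rats, its mean effective transcript length was 789 bases against 874 to 968, and transthyretin (TTR), the main product of the tissue, held 39.7% of its TPM against 32.2 to 38.2%. Among 6307 genes with a mean of at least 10, 612 in control rat 1 were more than 2-fold off the median of the remaining rats, a number that was 23 to 44 for any other rat. The diet differences of the 8 genes are therefore given with and without this rat. All 11 listed markers of the epithelium were found, from OTX2 at 56.2 to 83.0 up to TTR. The listed markers of astrocytes, oligodendrocytes and neurons had no entry in the name tables used here and could not be checked.

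The promoter letters of METRN and PTGDS are shown because METRN is the member whose diet groups did not overlap and PTGDS the abundant member that was high in the first rat of each diet. They are the 250 bases before the RefSeq start of each gene in the GRCr8 build, 5′ to 3′ on the strand of the gene. That build is not the Rnor_6.0 build of the expression values, and matches were made by symbol. Of the 8 genes, 6 had an entry, and CLU and ENPP2 did not. METRN lies at chr10:15323219-15323468 and PTGDS at chr3:28682979-28683228, both on the minus strand. Capitals mark the letters CCAAT (the CCAAT box) or GGGCGG (the GC box) on either strand.
METRN: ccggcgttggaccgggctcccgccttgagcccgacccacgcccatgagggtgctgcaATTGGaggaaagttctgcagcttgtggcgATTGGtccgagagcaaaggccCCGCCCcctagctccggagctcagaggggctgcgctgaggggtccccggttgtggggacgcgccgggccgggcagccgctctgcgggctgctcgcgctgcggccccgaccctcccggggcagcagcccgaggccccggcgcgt
PTGDS: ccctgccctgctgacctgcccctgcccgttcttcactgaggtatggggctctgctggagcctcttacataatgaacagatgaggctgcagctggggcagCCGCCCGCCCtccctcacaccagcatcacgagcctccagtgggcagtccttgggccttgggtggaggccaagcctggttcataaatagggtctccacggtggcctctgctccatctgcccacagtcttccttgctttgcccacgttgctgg
The METRN stretch held 2 CCAAT matches, both as the reverse complement ATTGG, and 1 GC box match. The PTGDS stretch held 2 overlapping GC box matches and no CCAAT match. Neither held TATAAA or CACGTG. Among 33469 rat promoter windows of this length, 34.0% held CCAAT, 30.5% GGGCGG, 12.9% TATAAA and 5.59% CACGTG on either strand. The GC content was 74.0% for METRN, above that of 95.8% of the windows, and 62.0% for PTGDS, above that of 79.0%. A match is a description of the letters and not a bound site.

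The 8 genes together held 2.70 to 3.41% of all TPM of a rat, with a mean of 2.90% ± 0.147 (SD, n = 5) in control rats and 3.04% ± 0.274 (SD, n = 5) in HFD rats. The highest share was that of HFD rat 1. With TTR set aside, the 8 genes held 4.06 to 5.04% of the remaining TPM, again highest in HFD rat 1. On the TPM as deposited, CST3 ranked 7 among all genes by its mean over the rats, PTGDS 8, IGFBP2 12, CLU 13, ENPP2 18, IGF2 43, APOE 311 and METRN 346. Neighbours in this order were not always apart. CST3 exceeded PTGDS in 9 of 10 rats, the exception being HFD rat 1, and PTGDS exceeded IGFBP2 in 9 of 10. IGFBP2 exceeded CLU in 7 of 10 rats, 5 in control rats and 2 in HFD rats. CLU stood above ENPP2, ENPP2 above IGF2, and IGF2 above APOE in 10 of 10 rats. APOE exceeded METRN in 4 of 10 rats, so that their order was not fixed. These orders are within a rat and do not depend on the rescaling.

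**Figure D1:**
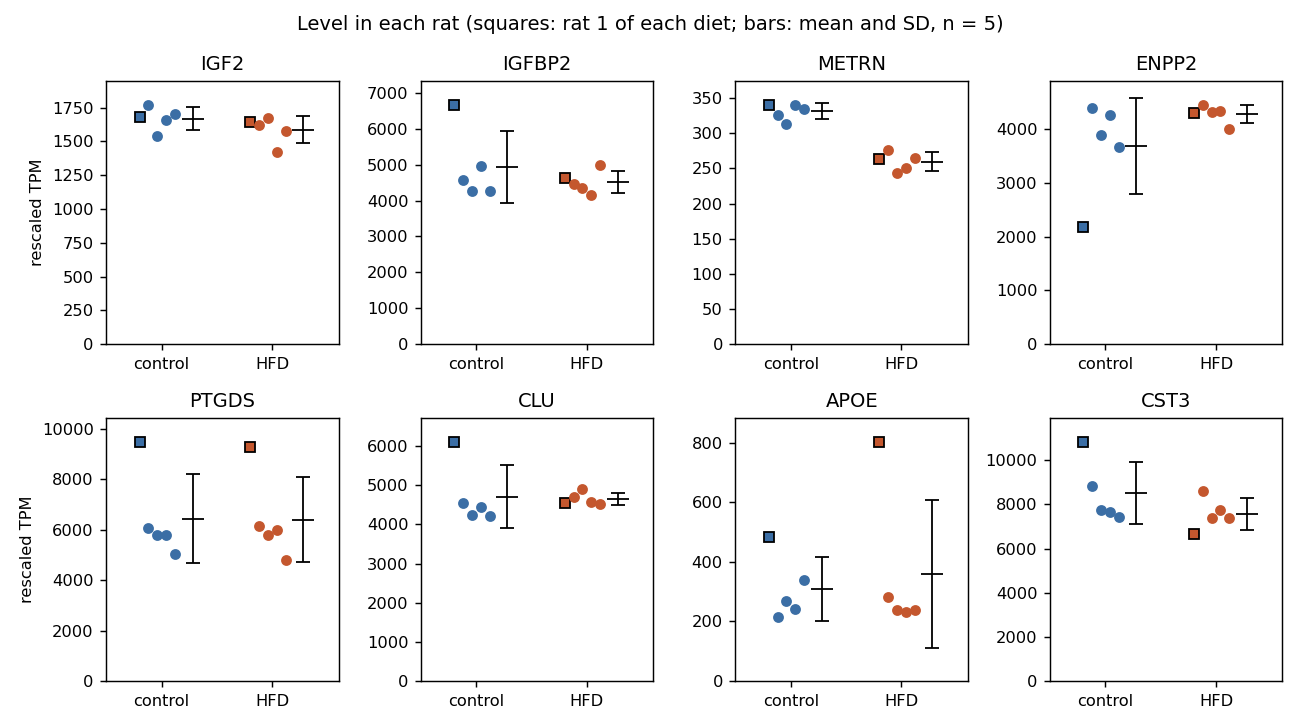
Rescaled TPM (vertical axis, from 0) of each of the 8 genes in the 5 control and 5 HFD rats. Each point is 1 rat, squares are rat 1 of each diet, and bars give mean ± SD. METRN is the gene whose groups do not overlap (243 to 276 on the HFD, 313 to 340 on the control diet), and the squares show control rat 1 far from the others for ENPP2, PTGDS and CLU and HFD rat 1 for PTGDS and APOE.

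The growth factor IGF2 had nearly the same level on both diets. Its rescaled TPM were 1680, 1770, 1537, 1659 and 1702 in control rats 1 to 5 and 1642, 1624, 1670, 1420 and 1579 in HFD rats 1 to 5. The groups overlapped, with the lowest value in HFD rat 4. The means were 1670 ± 85.1 and 1587 ± 98.8 (SD, n = 5 each). The log2 fold change (HFD minus control) was -0.07 with an SE of 0.07 and a 95% interval from -0.23 to 0.08, and it was -0.07 (SE 0.06) without control rat 1. The same difference on TPM as deposited was 0.03 with all rats and -0.06 without control rat 1, so its sign rested on how that rat was scaled.

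IGFBP2, which binds IGF2, was above it in every rat. IGFBP2 was at 6661, 4564, 4254, 4966 and 4264 in control rats 1 to 5 and 4620, 4466, 4343, 4151 and 4992 in HFD rats 1 to 5, in rescaled TPM. On this scale control rat 1 was high and the other 9 rats shared 1 range. The high value rested on the rescaling. As deposited, control rat 1 was at 4933 TPM, against 4294 to 5092 in the other control rats and 4057 to 5566 on the HFD. In rescaled TPM, the log2 fold change was -0.11 (SE 0.13, 95% interval -0.39 to 0.16) with all rats and 0.00087 (SE 0.08) without control rat 1. Within a rat, the ratio of IGFBP2 to IGF2 TPM was 2.51 to 2.99 in control rats 2 to 5, 2.60 to 3.16 on the HFD, and 3.96 in control rat 1.

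METRN, the glial and axonal growth factor, was lower in every HFD rat than in every control rat on the rescaled scale. Its rescaled TPM were 340, 327, 313, 340 and 335 in control rats 1 to 5 and 263, 276, 243, 251 and 265 in HFD rats 1 to 5. The gap between the lowest control rat and the highest HFD rat was wider than the range within the control group. The means were 331 ± 11.4 and 259.8 ± 12.9 (SD, n = 5 each). The difference was -0.35 on the log2 scale with an SE of 0.06 and a 95% interval from -0.47 to -0.23, which is 21.6% less. Every HFD rat below every control rat was seen for 2.00% of the 12220 genes tested. METRN was chosen with this contrast known, so nothing further is read from that share.

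The separation of METRN depended on how control rat 1 was scaled. On TPM as deposited, METRN was 251.8, 326, 324, 349 and 337 in control rats 1 to 5 and 280.0, 258, 227, 273 and 296 in HFD rats 1 to 5. Control rat 1 then lay within the HFD range and the groups overlapped, while control rats 2 to 5 all lay above the HFD rats. The log2 fold change was -0.25 (SE 0.10, 95% interval -0.48 to -0.02). Without control rat 1 it was -0.34 (SE 0.05) on the rescaled scale, and without control rat 1 and HFD rat 1 it was -0.35 (SE 0.06). Every HFD rat below each of control rats 2 to 5 was seen for 1.09% of all genes on TPM as deposited and for 2.73% on the rescaled scale, and nothing further is read from these shares.

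Ratios within a rat are free of any scaling. METRN was 9.53, 11.1, 11.3, 11.8 and 11.9% of the geometric mean of the other 7 genes in control rats 1 to 5, and 7.38, 9.17, 8.50, 9.04 and 9.63% in HFD rats 1 to 5. The groups overlapped only through control rat 1, which lay below HFD rat 5. IGF2 exceeded METRN 4.87 to 5.42 times in control rats and 5.66 to 6.87 times in HFD rats. Of the 7 ratios between METRN and another member, 2 had no overlap between the diets, those with IGF2 and ENPP2. Without control rat 1 there were 4. Of the 21 ratios between other members, 0 had no overlap with all rats and 1 without control rat 1. The share of ratios without overlap among pairs of all genes was not counted. METRN was chosen with this contrast known, so its larger share may follow from that choice. Nothing further is read from these ratios.

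Of the 11 listed stromal markers 5 were matched, and 1 of these 5 was lower in every HFD rat than in control rats 2 to 5, as were 2.73% of all genes. It was OGN (osteoglycin), a matrix protein of stroma and leptomeninges, which was at 10.6 in control rat 1, at 115 to 141 in the other control rats and at 31.5 to 80.8 on the HFD, in rescaled TPM. The log2 fold changes of the other 4 without control rat 1 were all above 0 (DCN 0.19, PRELP 0.16, FMOD 0.09 and MGP 0.08). The sum of the 5, most of which is MGP, was 1669 to 2182 in control rats and 1568 to 2289 in HFD rats, without separation. The part of stromal cells in the METRN values was not tested. In bulk tissue, fewer cells of a type and less RNA per cell cannot be told apart.

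**Figure D2:**
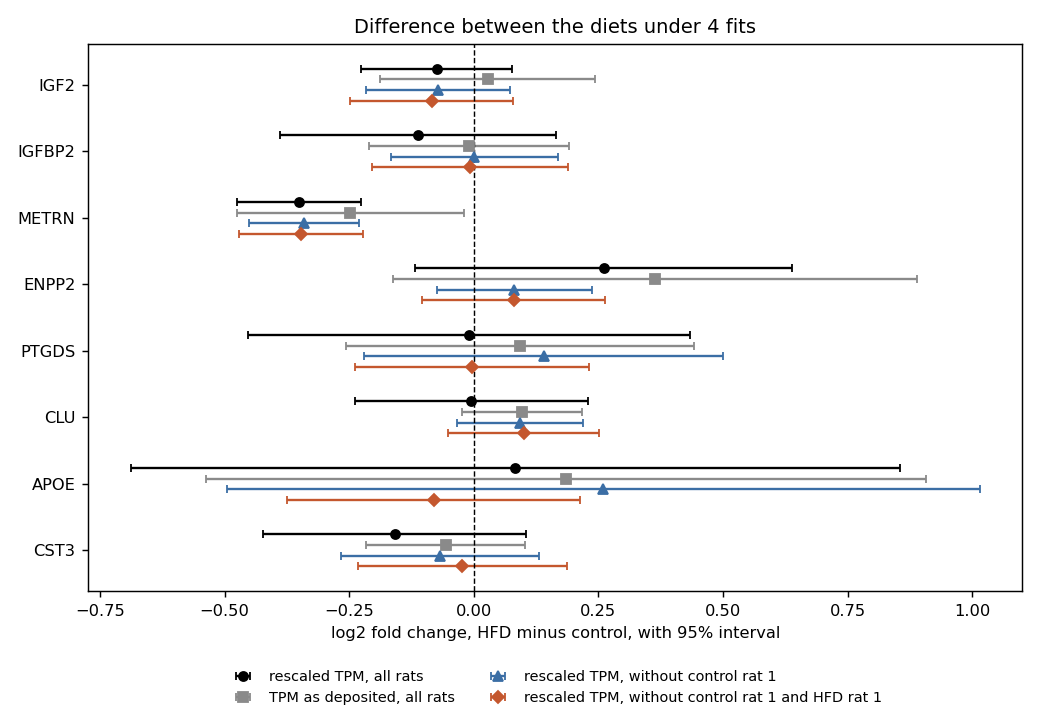
Log2 fold change, HFD minus control (horizontal axis), of the 8 genes with 95% intervals from limma, for rescaled TPM of all 10 rats, TPM as deposited, and rescaled TPM without control rat 1 or without both control rat 1 and HFD rat 1. The METRN difference lies between -0.35 and -0.25 in the 4 fits, and the widest interval for rescaled TPM of all rats is that of APOE (-0.69 to 0.85).

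ENPP2 and PTGDS, the enzymes of lysophosphatidic acid and prostaglandin D2, differed more between single rats than between the diets. The rescaled TPM of ENPP2 were 2173, 4398, 3890, 4263 and 3669 in control rats 1 to 5 and 4298, 4448, 4326, 4340 and 3997 in HFD rats 1 to 5. Control rat 1 was low and the ranges of the other control rats and the HFD rats overlapped. HFD minus control gave a log2 fold change of 0.26 (SE 0.17, 95% interval -0.12 to 0.64) with all rats and 0.08 (SE 0.07, 95% interval -0.07 to 0.24) without control rat 1. Most of the difference seen with all rats thus rested on control rat 1.

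PTGDS had 2 high rats, 1 on each diet. It was at 9493, 6080, 5785, 5807 and 5022 in control rats 1 to 5 and 9268, 6149, 5784, 5973 and 4785 in HFD rats 1 to 5, in rescaled TPM. The remaining 8 rats lay between 4785 and 6149, and the means without the first rat of each diet were 5673 ± 455 in control rats and 5673 ± 610.1 in HFD rats (SD, n = 4 each). The log2 fold change was -0.01 (SE 0.20) with all rats, 0.14 (SE 0.16) without control rat 1 and -0.0032 (SE 0.10, 95% interval -0.24 to 0.23) without both high rats. On TPM as deposited control rat 1 stood at 7031 and HFD rat 1 at 9856, against 5056 to 6500 in the others, so both remained highest. The ratio of PTGDS to ENPP2 within a rat was 4.37 in control rat 1, 2.16 in HFD rat 1 and 1.20 to 1.49 in the other 8.

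CLU, the chaperone, was the steadiest of the abundant members once control rat 1 was set aside. Its rescaled TPM were 6114, 4535, 4245, 4444 and 4218 in control rats 1 to 5 and 4543, 4688, 4908, 4582 and 4522 in HFD rats 1 to 5. Control rat 1 was highest, and control rat 2 alone of the others lay within the HFD range. The log2 fold change was -0.01 (SE 0.11, 95% interval -0.24 to 0.23) with all rats and 0.09 (SE 0.06, 95% interval -0.03 to 0.22) without control rat 1. On TPM as deposited control rat 1 was not apart (4528, against 4247 to 4557 in the other control rats), and the log2 fold change was 0.10 (SE 0.06).

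APOE, the lipid carrier, was marked by HFD rat 1. Its rescaled TPM were 482, 214, 267, 241 and 338 in control rats 1 to 5 and 803, 280.5, 239, 232 and 239 in HFD rats 1 to 5. HFD rat 1 stood far above all others, and control rat 1 came next. Between the diets the log2 fold change was 0.08 (SE 0.35, 95% interval -0.69 to 0.85) with all rats, 0.26 (SE 0.34) without control rat 1, -0.26 (SE 0.21) without HFD rat 1 and -0.08 (SE 0.13, 95% interval -0.37 to 0.21) without the first rat of each diet, so its sign rested on single rats. The ratio of CLU to APOE within a rat was 5.66 in HFD rat 1 and 12.5 to 21.2 in the other 9.

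CST3, the protease inhibitor and the most abundant of the 8, overlapped between the diets. Its rescaled TPM were 10846, 8857, 7730, 7672 and 7444 in control rats 1 to 5 and 6669, 8620, 7399, 7768 and 7402 in HFD rats 1 to 5. Control rat 1 was highest and HFD rat 1 lowest on this scale. As deposited, control rat 2 was highest (8851 TPM) and HFD rat 3 lowest (6911). In rescaled TPM, the log2 fold change of CST3 was -0.16 (SE 0.12, 95% interval -0.42 to 0.11) with all rats. It was -0.07 (SE 0.09) without control rat 1 and -0.02 (SE 0.09) without control rat 1 and HFD rat 1. CST3 was 6.47 to 7.69 times the summed TPM of 6 lysosomal cysteine proteases (CTSB, CTSC, CTSH, CTSL, CTSZ and LGMN) in control rats and 5.14 to 6.91 times in HFD rats, lowest in HFD rat 1.

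**Figure D3:**
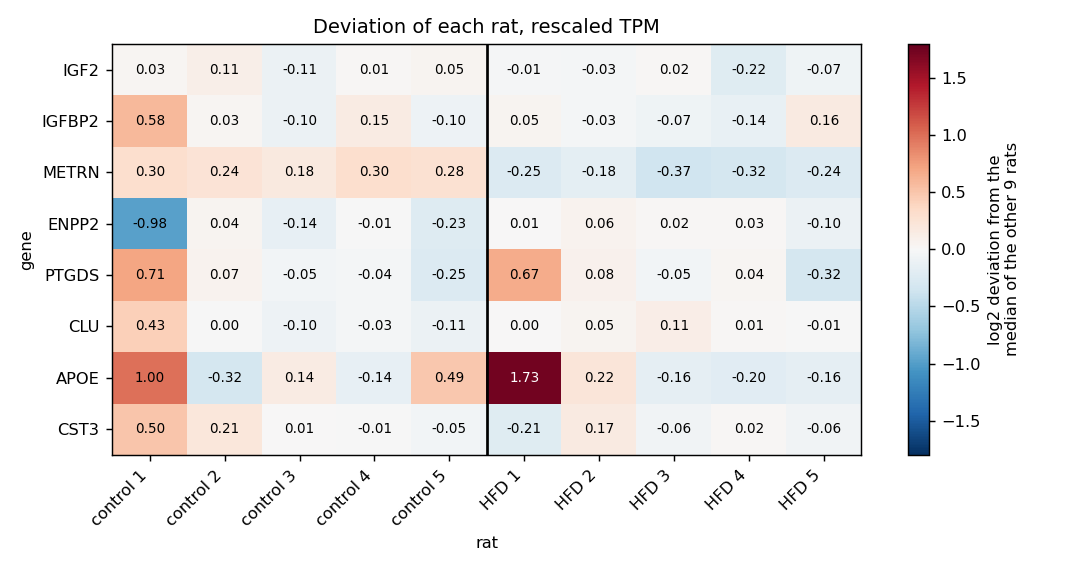
Log2 deviation of each rat (columns, control rats left of the line and HFD rats right of it) from the median of the other 9 rats for each gene (rows), in rescaled TPM, with the value in each cell. Control rat 1 departs for APOE (1.00), PTGDS (0.71), IGFBP2 (0.58) and ENPP2 (-0.98), HFD rat 1 for APOE (1.73) and PTGDS (0.67), and the METRN row is above 0 in all control rats and below 0 in all HFD rats.

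In rescaled TPM, control rat 1 and HFD rat 1 were both high for APOE and PTGDS, and control rat 1 departed in further members. In control rat 1, ENPP2 lay 0.98 log2 units below the median of the other rats and APOE, PTGDS, IGFBP2, CST3 and CLU lay 0.43 to 1.00 above it, while IGF2 deviated by 0.03. HFD rat 1 was 1.73 above for APOE and 0.67 above for PTGDS, -0.21 for CST3, and within 0.05 of the median for IGF2, IGFBP2, ENPP2 and CLU. Several departures of control rat 1 rested on the rescaling. In TPM as deposited it lay within the range of the other rats for IGFBP2 (4933), CST3 (8033) and CLU (4528). APOE was then at 357 in control rat 1 and 341 in control rat 5. ENPP2 stayed lowest in control rat 1 (1609), and IGF2 became lowest there (1244). Of the 6307 genes with a mean of at least 10, 14 were over 0.5 log2 units higher in HFD rat 1 than in every other rat but control rat 1. The same number was 16 in control rat 5, 10 in HFD rat 5 and 1 to 8 in the other rats, so that it was not highest in HFD rat 1. Of the 14 genes of HFD rat 1, 5 had a symbol, namely APOE, PTGDS, NNAT (neuronatin), VIM (vimentin) and CAPNS1. VIM, an intermediate filament of mesenchymal and glial cells, was at 133 in HFD rat 1 and 45.7 to 72.1 in the others without control rat 1. The stromal marker sum of HFD rat 1 was 1633 against 1568 to 2289 in the other HFD rats, and its macrophage sum (CD74, LYZ2 and RT1-DA, 3 of 10 listed) was 716 against 530.0 to 728. Its endothelial marker PLVAP (1 of 6 listed) was at 55.5 against 51.6 to 67.9 and its mural marker RGS5 (1 of 6) at 103 against 116 to 131. In control rat 1, RGS5 was at 43.1 against 107 to 112 in the other control rats and PLVAP at 98.3 against 54.4 to 63.2, in rescaled TPM. The 4 haemoglobin genes summed to 7867 against 3699 to 6993, but HBB (1234) and HBB-BS (350) lay within the range of those rats. The macrophage sum was 481 against 561 to 716, and the ependymal marker RSPH1 (1 of 5 listed) was at 119 against 68.3 to 83.4. The stromal sum was 2182 against 1669 to 1779, although DCN (117) and OGN (10.6) were lower than in those rats. The part of other cell types in these values was not tested.

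The members also ranged widely in how far rats of the same diet differed. The pooled SD within a diet, on the log2 scale, was 0.06 for METRN and 0.08 for IGF2, smaller than in all but 2.30% and 8.61% of the 6307 genes. It was 0.63 for APOE, larger than in 97.1% of the genes, 0.35 for PTGDS and 0.30 for ENPP2. The median over the 6307 genes was 0.17. The low ranks of METRN and IGF2 rested on control rat 1 and its scaling, since 11.2% and 34.0% of the genes had a smaller SD without that rat, and 33.2% and 31.1% on TPM as deposited. Without control rat 1 the pooled SD of ENPP2 was 0.09 and that of CLU 0.05, while APOE stayed at 0.61. Without HFD rat 1 as well, APOE was at 0.22, PTGDS at 0.14 and METRN at 0.07, and the median over the genes was 0.11.

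**Figure D4:**
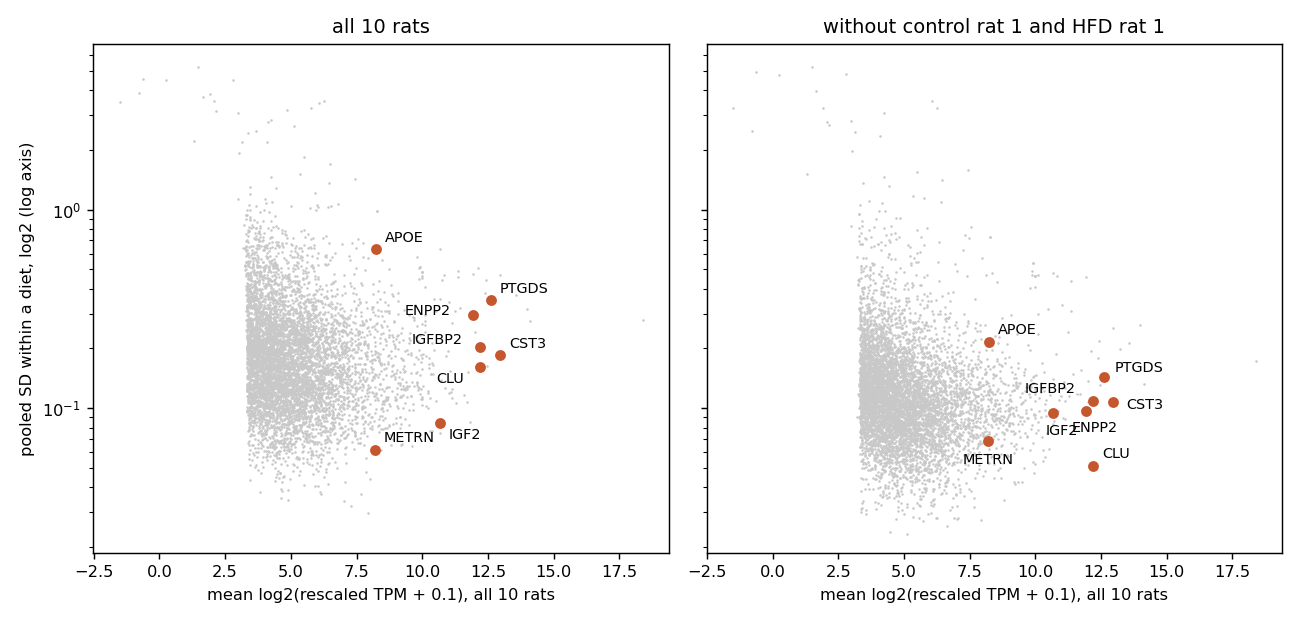
Pooled SD within a diet of log2 rescaled TPM (vertical log axis) against the mean level (horizontal axis) of 6307 genes averaging at least 10 rescaled TPM (grey) and the 8 genes (orange), for all 10 rats (left) and without control rat 1 and HFD rat 1 (right). METRN and IGF2 are low on the left (0.06 and 0.08), and APOE stays the most variable of the 8 on both sides (0.63 and 0.22).

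For each member, the genes with the most similar pattern over the 10 rats were sought among 1983 named genes with a mean of at least 10, by the root mean square difference of centred log2 values. IGF2 was nearest to MAGED1 (0.04) and NPC2 (0.05), and IGFBP2 to TMED3 and NR1H2 (0.06 and 0.07). METRN was nearest to LOC100912599 and LOC679739 (0.04 each), which are listed with identical values in every rat and may share reads, so that they count as uncertain. ENPP2 was nearest to TMCO1 and SLC30A9 (both 0.07), CLU to CERS2 and PDIA3 (both 0.05), and CST3 to MEA1 (0.05) and TMEM134 (0.06). TMCO1, like ENPP2, was low in control rat 1 (58.7) and at 97.8 to 115 in the other rats. PTGDS was nearest to RARRES2 (chemerin, 0.12) and IFITM2 (0.17), and APOE to VIM (0.24) and NNAT (0.28). These larger differences belong to members that themselves varied more, with a root mean square around the mean of 0.31 for PTGDS and 0.57 for APOE against 0.08 for IGF2. RARRES2 was at 76.3 in control rat 1 and 72.6 in HFD rat 1, and at 33.9 to 58.4 in the other rats, in rescaled TPM. TMCO1 and RARRES2 were picked for their likeness to ENPP2 and PTGDS. That they depart in the same rats follows from this choice and is no separate result.

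Across all 12220 genes tested with limma, 0 (0.00%) passed an adjusted p of 0.05 (Benjamini-Hochberg), the lowest being 0.541. Before adjustment, 1052 genes (8.61%) had a p under 0.05, of which those lower on the HFD made 4.83% of all genes and those higher 3.78%. Of the 8 members 1, METRN, was among the 1052. The median log2 fold change was -0.04 over the 8 members and 0.01 over all genes. It was also -0.04 over the 6307 genes with a mean of at least 10, a level that all 8 members pass. On TPM as deposited the medians over the members and over all genes were 0.06 and 0.12. The scaling thus shifted all genes by about the same amount, and changes are given relative to the rescaled level. With TPM as deposited 5.11% of the genes had an unadjusted p under 0.05, with the number of higher calls above that of lower ones (3.85% against 1.26%).

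The partners of the members in their own pathways were few among the named genes. Of 136 listed genes 57 were tested, 0 had an adjusted p under 0.05, and 5 (8.77%) had an unadjusted p under 0.05, close to the 8.61% of all genes. Of the IGF axis, 2 of 17 listed genes were tested, IGFBP7 at 311 ± 50.0 in control rats and 284 ± 30.0 in HFD rats, and IGFBPL1 at 92.6 ± 21.1 and 94.6 ± 15.9 (rescaled TPM, SD, n = 5 each). Around lysophosphatidic acid, 1 of 15 was tested, ENPP5, a relative of ENPP2, at 65.2 ± 8.27 and 72.5 ± 2.41. Around prostaglandins, 3 of 18 were tested. PTGES3, a prostaglandin E synthase and co-chaperone, was at 107 ± 5.78 and 97.8 ± 4.90, PTGR2, a prostaglandin reductase, at 66.4 ± 10.1 and 67.7 ± 2.46, and PLA2G5, a secreted phospholipase, at 234 ± 46.4 and 246 ± 19.8. None of these 6 genes had an unadjusted p under 0.05.

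Among lipoprotein genes, 4 of 25 listed were tested and 0 had an unadjusted p under 0.05. PLTP, the phospholipid transfer protein, was at 368 in control rat 1, at 166 to 183 in the other control rats and at 175 to 197 on the HFD. LPL, the lipoprotein lipase, was at 102 ± 13.6 and 110.4 ± 21.4, and LRPAP1, a chaperone of lipoprotein receptors, at 109.9 ± 17.6 and 108 ± 10.2. Of the cysteine proteases and their inhibitors, 8 of 14 were tested and 0 had an unadjusted p under 0.05. The protease CTSB was at 420.2 ± 109 and 407 ± 36.7, the protease CTSL at 376 ± 28.8 and 385 ± 29.0, and the intracellular inhibitor CSTB at 279.6 ± 5.28 and 269.8 ± 20.5. The single other gene listed for the meteorin family had no entry.

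Of 46 other secreted proteins, 39 were tested. Their median log2 fold change was -0.05, against 0.01 over all genes and -0.04 over the 6307 genes with a mean of at least 10. Of the 39, 5 (12.8%) had an unadjusted p under 0.05 in limma, against 8.61% of all genes and 626 of the 6307. With so few genes, this share is not read as a result about secreted proteins. Of the 5, 3 were lower and 2 higher on the HFD, and 0 passed adjustment in limma. The lower ones were MANF, a neurotrophic factor of the endoplasmic reticulum, NENF (neudesin), a secreted neurotrophic factor, and LGALS3BP, a glycoprotein that binds galectins. MANF was at 261, 221, 240.1, 225 and 226 in control rats 1 to 5 and 210.3, 198, 212, 208 and 205 in HFD rats 1 to 5, without overlap. Its log2 fold change was -0.18 (SE 0.06, limma, adjusted p = 0.541). NENF was at 205, 171, 151, 150.3 and 159 in the control rats and 149, 151, 132, 118 and 123 in the HFD rats, with overlap and a log2 fold change of -0.31 (SE 0.10, limma, adjusted p = 0.541). LGALS3BP was at 299.7 ± 21.6 and 269 ± 11.8 (limma, adjusted p = 0.570).

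The higher ones were FSTL1, a secreted glycoprotein related to follistatin, and F5, coagulation factor V. FSTL1 was at 34.4, 56.1, 54.2, 52.8 and 56.2 in control rats 1 to 5 and 61.7, 63.8, 65.0, 67.6 and 65.2 in HFD rats 1 to 5, without overlap. Its log2 fold change was 0.37 (SE 0.13, limma, adjusted p = 0.541) with all rats and 0.24 (limma, adjusted p = 0.190) without control rat 1, which was low. Every HFD rat above every control rat was seen for 1.39% of all genes, and every HFD rat below for the 2.00% given for METRN. F5 was at 158 ± 27.2 and 193 ± 23.6, again with control rat 1 lowest (111), and its groups overlapped (limma, adjusted p = 0.574). Its log2 fold change was 0.30 with all rats and 0.18 without control rat 1, where its unadjusted p was no longer under 0.05. On TPM as deposited NENF and FSTL1 still had an unadjusted p under 0.05, while the other 3 did not, with log2 fold changes of -0.08 for MANF, -0.05 for LGALS3BP and 0.41 for F5.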

How the data were processed

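The authors sequenced choroid plexus RNA (NEB Next Ultra library kit, paired-end Illumina reads), aligned it to Rnor_6.0 with STAR and quantified it with RSEM 1.3.3. The submitters' processing notes name STAR 2.7.2a, while the methods name another release. The deposited TPM and FPKM are per gene, by Ensembl identifier and to 2 decimals, and FPKM divided by TPM gave, to rounding, the same quotient for every gene of a rat, so that FPKM served only for the mean effective transcript length. The raw counts of the authors' own test were not used here.

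TPM were rescaled by median ratios over 12037 genes. Genes with a mean of at least 1 were fitted with limma 3.58.1 (R 4.3.3, trend in eBayes) on log2(rescaled TPM + 0.1), with diet as the single term and p-values adjusted by Benjamini-Hochberg over 12220 genes, and the step was tested on simulated data. The pseudocount shrinks fold changes of low genes. Python 3.11.15, numpy 2.4.6, pandas 2.3.3 and matplotlib 3.10.9 did the rest. Each rat is a separate animal, so a p-value sets the diet difference against the spread between animals, as moderated by limma across genes.

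Symbols came from the paper's tables, of which the longer copy is shortened to its most abundant genes, and named 2015 identifiers. Of the symbols, 7 matched several identifiers and were dropped. The members and lists were chosen with earlier results of these data known. All 8 members are named. Of each list, the text names genes with an unadjusted p under 0.05 (at most 5), otherwise the 3 most abundant, and for likeness the 2 nearest genes per member. OGN, VIM and single markers are named where a rat stood apart. Promoter letters are RefSeq's (GRCr8). The alternatives tried were other scalings, pseudocounts, filters, weights, a replicate block and leaving out each rat.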

Additional observations from a re-analysis of the deposited data

Results flagged for a closer look

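Dixon's limit for 5 animals is a gap ratio of 0.71. Of 30 groups of values from the 8 genes and their ratios, 6 held a rat whose gap to its nearest neighbour passed this limit. Chance would give about 1.5 if no rat stood apart across the genes. Control rat 1 did stand apart, with 612 of 6307 genes more than 2-fold off the median of the other rats. How often rat 1 of a diet passes the limit among all genes was not counted. The 6 are therefore not read as particular to these genes. All 6 were rat 1 of a diet. Control rat 1 stood out for PTGDS at 9493 rescaled TPM (the other control rats 5022 to 6080), for CLU at 6114 (4218 to 4535) and for the ratio of PTGDS to ENPP2 at 4.37 (1.36 to 1.49). HFD rat 1 stood out for APOE at 803 rescaled TPM (the other HFD rats 232 to 280.5), for the ratio of PTGDS to ENPP2 at 2.16 (1.20 to 1.38) and for the ratio of CLU to APOE at 5.66 (16.7 to 20.6). For control rat 1, the PTGDS and CLU values rested on the rescaling. In TPM as deposited, looked at after seeing the data, PTGDS was 7031 against 5056 to 6076 in the other control rats, with a gap ratio of 0.484, and CLU was 4528 against 4247 to 4557. On that scale the limit was passed instead by control rat 1 for METRN (251.8, others 324 to 349) and ENPP2 (1609, others 3694 to 4395) and by HFD rat 1 for PTGDS (9856) and again APOE (854). The groups are not independent, since the ratios reuse the same genes.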

How the results depend on the processing

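The number of genes with an adjusted p under 0.05 was 0 in limma, 1 with no filter on low genes and 3 with array weights, of which METRN was 1. METRN was chosen with this contrast known, so its place among the 3 is no support. The number was 0 without any single rat. Before adjustment, 1052 genes had a p under 0.05. This count was 624 with TPM as deposited, 626 among genes with a mean of at least 10, 1878 with array weights and 797 to 1441 without a single rat. The share of higher calls among these was 43.9%, 75.3% with TPM as deposited, 80.6% with TPM divided by non-TTR TPM, 60.5% with upper-quartile rescaling and 20.9% among genes with a mean of at least 10. Of the 57 pathway genes, 5 had an unadjusted p under 0.05, 3 with TPM as deposited or with no mean-variance trend, 12 with array weights and 3 to 10 without a single rat (8 without control rat 1, 10 without control rat 2, 3 without control rat 4 or HFD rat 3). Among alternatives chosen after seeing the data, the number was 8 without control rat 1 and HFD rat 1 and 9 with TPM as deposited without control rat 1.

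METRN, ENPP2 and CST3 kept the sign of their log2 fold change in all 22 alternatives, although the intervals of ENPP2 and CST3 with all rats include 0. Some alternatives could not alter the sign. Other filters, leaving out the mean-variance trend and the replicate block leave the log2 fold change as it is, and other pseudocounts hardly move it. IGF2 changed sign in 2, IGFBP2 in 2, APOE in 3, and PTGDS and CLU in 9 each, all from values whose intervals include 0. With TPM as deposited IGF2 was 0.028 and METRN -0.25, and with TPM divided by non-TTR TPM they were 0.028 and -0.25. Without a single rat, the log2 fold change was -0.10 to -0.03 for IGF2, -0.16 to 0.00087 for IGFBP2, -0.37 to -0.33 for METRN, 0.08 to 0.34 for ENPP2, -0.15 to 0.14 for PTGDS, -0.04 to 0.09 for CLU, -0.26 to 0.26 for APOE and -0.21 to -0.07 for CST3. The share of TPM held by the members differed by 0.14 percentage points (HFD minus control) and by 0.04 to 0.22 without a single rat.

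The pooled SD with TPM as deposited was 0.16 for IGF2, 0.17 for METRN, 0.067 for CLU and 0.11 for CST3. Without control rat 1 it was 0.10 for IGFBP2, 0.090 for ENPP2 and 0.050 for CLU. Without control rat 1 and HFD rat 1, chosen after seeing the data, it was 0.11 for IGFBP2, 0.10 for ENPP2, 0.14 for PTGDS, 0.051 for CLU, 0.22 for APOE and 0.11 for CST3.

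The rats share only a replicate number. Same-numbered rats had correlations of -0.04 to 0.12 between their deviations from the group means, and 1 of 5 control rats correlated best with its own number. With the number as a block, 1138 genes had a p under 0.05 in limma before adjustment and 0 after it. The SE then fell from 0.20 to 0.07 for PTGDS and from 0.35 to 0.18 for APOE, both high in rat 1 of each diet. It changed little for the other members, for example from 0.17 to 0.16 for ENPP2 and from 0.12 to 0.13 for CST3. What the number stands for was not tested. The depth of the libraries is unknown, and no counting error could be given.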
